A study of Mus musculus with 9 samples.

Results

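The ovary of the juvenile mouse at postnatal day 14 (PD14), before follicles formed an antrum, was described from its own transcripts. The series comprised 9 RNA sequencing libraries from PD14, PD15 and PD16, and the 3 PD14 libraries alone were used here, without a comparison between days. The mice were of the Kunming strain, an outbred stock, were 14 days old and carried no genetic change or treatment in the labels. The study calls the ovaries of its transcriptome analysis biologically independent. The labels give the tissue as ovary but the source as granulosa cells, and this was checked against marker genes. Members were the 22045 protein-coding genes among the 52025 genes of each table, ranked by their mean FPKM (fragments scaled to exon length and library depth) over the 3 libraries. Values are given for PD14 replicates 1, 2 and 3 in that order, or as mean ± SD (n = 3).

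A follicle holds an oocyte surrounded by granulosa cells, which are coupled to it by gap junctions and nourish it. Theca cells gather outside the basal lamina of growing follicles and make androgen, which granulosa cells convert to estrogen under follicle stimulating hormone (FSH). The antrum is a fluid-filled space among the granulosa cells, and tight junctions, ion pumps and water channels are candidates for its filling. C-type natriuretic peptide (CNP), made by granulosa cells, acts through its receptor NPR2 and holds the oocyte in meiotic arrest.

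The libraries held 24.5 M, 24.2 M and 20.4 M mapped fragments, as derived from the steps of low FPKM. They agreed closely across genes, since Pearson's r of log2(FPKM + 1) between pairs of libraries was 0.996 to 0.997, although genes are not independent replicates. Protein-coding genes took 88.3% ± 0.375 of the summed FPKM and processed pseudogenes 7.22% ± 0.417.

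Of the 22045 protein-coding genes, 12302 (55.8%) had a mean FPKM above 1, the level at which the study calls a gene expressed. The libraries taken singly gave 12313, 12291 and 12277 such genes, and 12007 genes were above 1 in each of them. A further 3665 genes were at 0 in all 3 libraries. The median protein-coding gene lay at 2.10 FPKM and the median expressed gene at 9.19 FPKM. Above 10 FPKM were 5747 genes (26.1%), and this share and the 55.8% above 1 FPKM are the background of each count of list members given here. Above 100 FPKM were 358 genes and above 1000 FPKM 19 genes. The transcript pool was spread over many genes. The 10 most abundant genes took 8.95% ± 0.358 of the summed protein-coding FPKM, the 100 most abundant 25.02% ± 1.07 and the 1000 most abundant 54.0% ± 1.15.

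**Figure D1:**
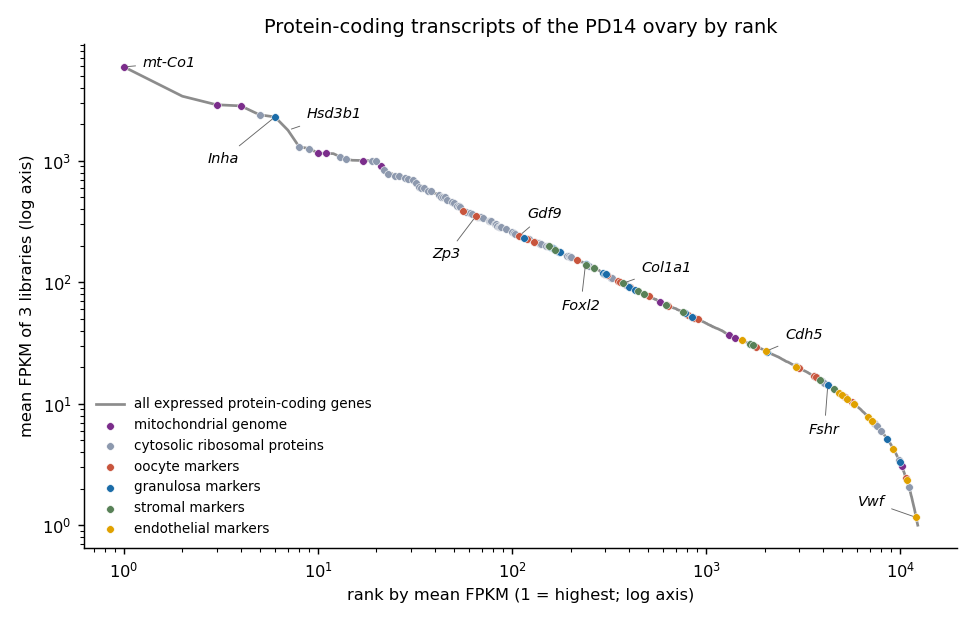
Mean FPKM of the 3 PD14 libraries (log axis) against rank (log axis) for the 12302 expressed protein-coding genes, with members of 6 gene lists as coloured points. Inha and Hsd3b1 stand at ranks 6 and 7 among genes of translation and of the mitochondrial genome, whereas endothelial markers begin at rank 1526.

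The head of the ranking was made of genes for protein synthesis and respiration, together with a granulosa hormone subunit and a steroid enzyme. mt-Co1, a cytochrome c oxidase subunit of the mitochondrial genome, was first with 6081, 5502 and 6199 FPKM. Eef1a1, which brings aminoacyl-tRNA to the ribosome, was second with 3406, 3118 and 3676 FPKM. It was followed by mt-Cytb (2892 ± 215 FPKM), mt-Nd1 (2832 ± 176) and the ribosomal protein gene Rplp1 (2390 ± 218). Inha, which encodes the alpha subunit of inhibin and is made by granulosa cells, was sixth with 2210, 2048 and 2629 FPKM. Hsd3b1, the enzyme that makes progesterone from pregnenolone, was seventh with 2091, 1460 and 1804 FPKM. Replicate 3 was highest for Inha and replicate 1 for Hsd3b1, and replicate 2 was lowest for both.

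Among the 30 most abundant genes, 13 were in the list of cytosolic ribosomal proteins, 7 were proteins of the mitochondrial genome and 3 were in the list of translation factors. The ribosomal proteins included Rplp1, Rpl8, Rpl36, Rps23, Rps15, Rps24, Rpl4, Rps4x, Rpl32, Rpl23a, Rps6 and Rpl41, between 2390 and 715 FPKM. Rps3a1 (1145 ± 144 FPKM) and Rps27rt (1010 ± 344), which are ribosomal protein genes outside that list, also stood there. Those of the translation factor list were Eef1a1, Eef2 and Tpt1, the last of which encodes the translationally controlled tumour protein and is not itself a translation factor. Beside Inha and Hsd3b1, the 30 held Ptma, a chromatin-associated acidic protein that shares 12.95% of its windows with other genes (784 ± 68.9 FPKM), the chaperone Hsp90ab1 (732 ± 18.02) and the iron store ferritin heavy chain Fth1 (707 ± 44.4). Of the 100 most abundant genes, 49 were in the ribosomal protein list.

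Genes with ovarian or general roles followed once translation and the mitochondrial genome were set aside. Among the genes that follow, Tceal9, Gas6, Laptm4a, Itm2b and Akr1cl were named after their values were seen. Tceal9, a protein of the transcription elongation factor A-like family, had 542 ± 22.1 FPKM and Gas6, the ligand of the TAM receptor kinases, had 538 ± 29.3. Ldhb, the lactate dehydrogenase subunit that favours the use of lactate, had 549, 462 and 602 FPKM, whereas its partner subunit gene Ldha had 58.6, 65.3 and 65.9. The antioxidant enzyme Sod1 had 466 ± 54.4 FPKM, the matrix protein Sparc 391 ± 7.64 and the IGF-binding protein Igfbp7 387 ± 25.2. Itm2b (376 ± 23.2 FPKM) and Laptm4a (374 ± 14.2), both membrane proteins, stood close to them. Bst2, a membrane protein of the interferon response, reached 352 ± 10.8 FPKM, and 9 of the 16 genes of that list were above 1, a share near the 55.8% of all protein-coding genes, with a list median of 1.21 FPKM. Akr1cl, an aldo-keto reductase, had 336 ± 26.1 FPKM.

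Ribosomal proteins took the largest share of any list. The 82 cytosolic ribosomal protein genes summed to 11.5%, 11.1% and 12.2% of protein-coding FPKM, and 81 of them were above 1. Their median was 311 FPKM, against 2.10 FPKM over all protein-coding genes, and 70 were above 100 FPKM. Translation factors, 52 genes, took 3.08% ± 0.0958, and the 78 mitochondrial ribosomal protein genes 0.573% ± 0.0136. Many of these genes have copies elsewhere in the genome, and 49 of the 82 ribosomal protein genes shared over 10% of their 100-base windows with transcripts of another gene. The tables also list values for the copies. Rpl34 was listed at 39.9, 5.43 and 5.42 FPKM, whereas its processed pseudogene Rpl34-ps1 was listed at 1207, 1441 and 1732. Rps2 was listed at 6.50 ± 1.12 FPKM and its pseudogene copies together at a mean of 792. The level of such a gene could therefore not be told apart from that of its copies. With the pseudogene copies added to list and total, the share of ribosomal proteins was 14.1% ± 0.828.

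Messages of ribosomal proteins are known to start with a run of pyrimidines, the element through which mTOR controls their translation, and mTOR signalling is a subject of the study. Promoter windows from RefSeq (GRCm38.p6; 250 bases before to 50 after an annotated start) matched 61 of the 82 ribosomal protein genes, with 73 windows. A run of at least 6 bases that were all C or T on the coding strand, touching the start or the 3 bases on either side, was present in 39.7% of these windows. The same run was found in 16.5% of all 19874 windows of protein-coding genes, in 12.2% of those of the translation factor list and in 17.3% of those of mitochondrial ribosomal proteins. Among the other lists searched it was in 22.9% of the 70 windows of nuclear oxidative phosphorylation, in 23.8% of the 21 windows of the subcortical maternal complex list and in 36.4% of the 11 windows of stromal markers. The bases from 25 before to 20 after the start are shown for 6 genes, with the run in capitals. These genes are the most abundant ribosomal protein and translation factor genes that hold the run, with windows of a single chromosome left out.
Eef1a1 (chr9:78481705-78481749, minus strand): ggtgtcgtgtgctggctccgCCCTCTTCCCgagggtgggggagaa
Rps23 (chr13:90923097-90923141, plus strand): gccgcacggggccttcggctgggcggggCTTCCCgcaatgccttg
Rps24 (chr14:24490653-24490697, plus strand): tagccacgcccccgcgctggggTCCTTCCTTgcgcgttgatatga
Rps6 (chr4:86857348-86857392, minus strand): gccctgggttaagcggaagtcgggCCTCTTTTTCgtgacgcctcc
Rpl19 (chr11:98026899-98026943, plus strand): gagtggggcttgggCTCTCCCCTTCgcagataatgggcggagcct
Fau (chr19:6057922-6057966, plus strand): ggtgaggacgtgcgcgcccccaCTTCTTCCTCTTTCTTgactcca
The runs were between 6 bases (Rps23) and 16 bases (Fau) long. The match is a description of these letters and not of a regulated site. Annotated starts can be off by some bases, and the match depends on them.

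The other large shares were those of respiration and of the cytoskeleton. The 13 proteins of the mitochondrial genome took 5.69% ± 0.0894 of protein-coding FPKM, and 7 of them were among the 30 most abundant genes. Within this genome the listed levels ran from 5928 ± 373 FPKM for mt-Co1 to 3.06 ± 0.0652 for mt-Atp8. mt-Co2, mt-Co3 and mt-Atp6 were listed at 69.3, 36.9 and 34.9 FPKM. These genes share 99.5% to 99.9% of their 100-base windows with transcripts of another gene. Sharing did not follow level throughout, since mt-Co1 shares 30.8%, mt-Nd4 (905 FPKM) 60.8% and mt-Cytb, mt-Nd1 and mt-Atp8 none. The 80 nuclear genes of oxidative phosphorylation took 1.97% ± 0.0668, with Cox6a1 (288 ± 24.3 FPKM) and Atp5a1 (270 ± 12.3) highest. All 23 genes of pyruvate dehydrogenase and the TCA cycle were above 10 FPKM, and Sdhd was highest with 87.8 ± 6.79. Of 25 genes of glycolysis and glucose transport 23 were above 1, and their median of 8.01 FPKM lay below that of the TCA cycle list, 34.9. Of these 25 genes, 5 shared over 10% of their windows with another gene, beside 0 in the TCA cycle list. Gapdh was listed at 2.28, 2.70 and 8.60 FPKM and shared 20.9% of its windows with other genes, so its level is uncertain.

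**Figure D2:**
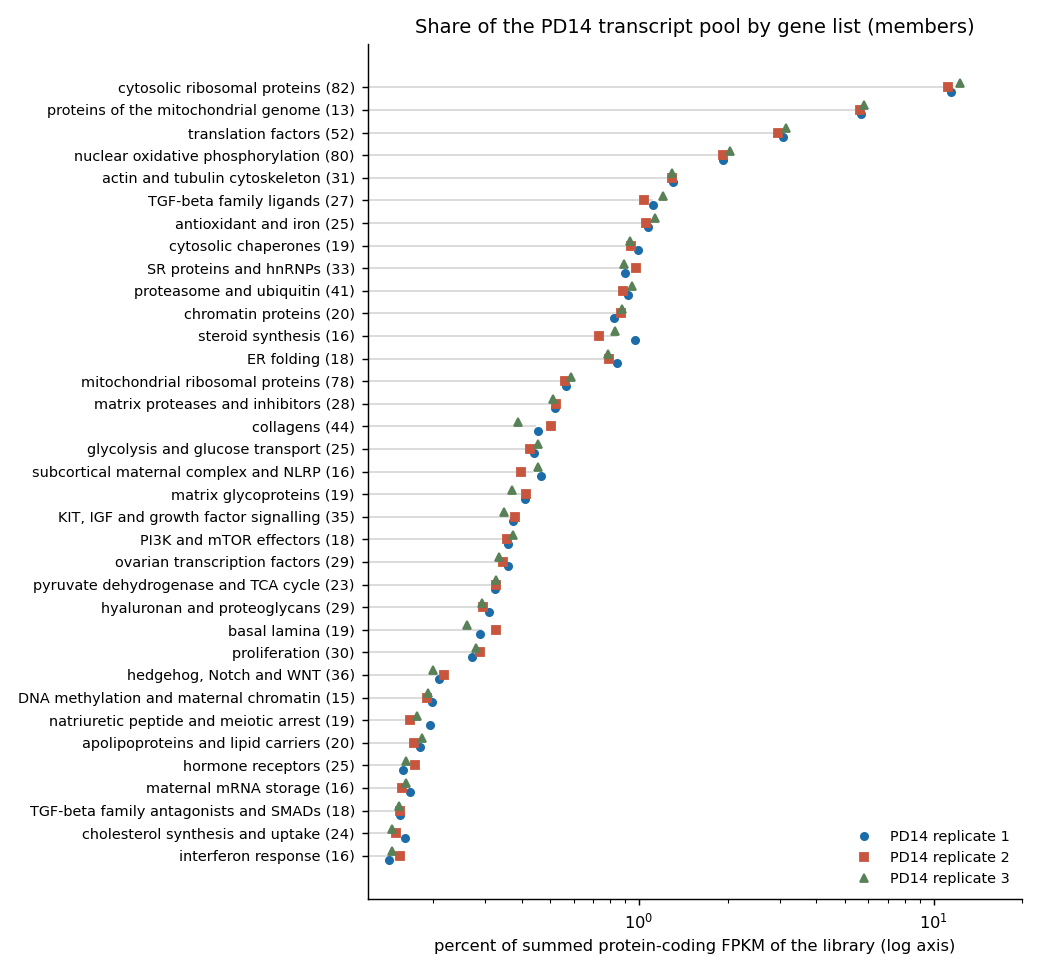
Percent of summed protein-coding FPKM (log axis) taken by each of the 35 functional gene lists with a mean share above 0.14%, with 1 point for each PD14 library and the number of members in brackets. Ribosomal proteins lead with 11.1% to 12.2%, and steroid synthesis, collagens and basal lamina are the lists drawn whose libraries lie farthest apart relative to their mean.

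Transcripts of every main cell type of the ovary were present. A sum of marker FPKM is not a proportion of cells, and fewer cells of a type and less RNA per cell cannot be told apart in such libraries. Granulosa markers took 1.53% ± 0.0857 of protein-coding FPKM, oocyte markers 0.943% ± 0.0829, theca and interstitial markers 0.806% ± 0.105 and stromal markers 0.448% ± 0.0345. Single genes carried much of these sums, since Inha made 53.2% of the granulosa list and Hsd3b1 78.5% of the theca list. Without the highest gene of each list the shares were 0.716% ± 0.0194 for granulosa, 0.805% ± 0.0724 for oocyte, 0.173% ± 0.00643 for theca and 0.378% ± 0.0306 for stromal markers, so that granulosa fell below oocyte and theca below stroma. Smooth muscle and pericyte markers took 0.138% ± 0.0103, of which Acta2 made 66.4%, and endothelial markers 0.0527% ± 0.00361. Without the highest gene of each list these shares were 0.0465% ± 0.00491 and 0.0410% ± 0.00266. Defining markers of oocytes, theca, stroma and vessels were all above 1 FPKM in every library. Granulosa cells mixed with other cells could also meet this level. The study states that RNA for sequencing was extracted from collected ovaries, and the libraries are therefore described as ovary and not as granulosa cells. Of 4 genes of the Y chromosome, 3 were at 0 in every library and Kdm5d had a mean of 0.00272 FPKM.

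Oocyte markers reached into the 100 most abundant genes. All 28 oocyte markers were above 1 FPKM and 26 were above 10, against 55.8% and 26.1% of all protein-coding genes. Padi6, a protein of the oocyte's cytoplasmic lattices, ranked 56 with 406, 343 and 420 FPKM. Zp3, which encodes a protein of the zona pellucida, the coat of the oocyte, ranked 65 with 352, 309 and 386 FPKM. Its partner Zp2 had 236, 197 and 248 FPKM and Zp1 had 106, 90.7 and 103. The growth factor Gdf9, through which the oocyte acts on granulosa cells, had 259, 206 and 260 FPKM, and its relative Bmp15 had 48.2, 47.6 and 53.1. Replicate 2 was the lowest library for Padi6, Zp1, Zp2, Zp3, Gdf9 and Bmp15, and the share of the oocyte list was 0.988%, 0.847% and 0.993%.

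The oocyte also stores products for the early embryo, and these transcripts were present before antrum formation. All 16 genes of the subcortical maternal complex and NLRP list were above 1 FPKM, with a median of 22.9 FPKM. After Padi6, the highest were Nlrp14 (215 ± 26.6 FPKM), Zbed3 (210 ± 13.2) and Tle6 (102 ± 15.1). Nlrp5, the gene known as Mater, had 109, 78.7 and 84.5 FPKM and Ooep had 79.3, 65.0 and 86.0. Npm2, a histone chaperone that acts on sperm chromatin after fertilization, reached 152 ± 24.6 FPKM, Dppa3, which protects the maternal genome from demethylation, 117 ± 21.3, and the oocyte linker histone H1foo 114 ± 19.8. Of the 16 genes for storage of maternal mRNA all were above 1, led by Eif4e1b (65.9 ± 8.06 FPKM), Lsm14b (58.4 ± 3.23) and Zar1 (53.9 ± 6.66). DNA methylation genes included Dnmt1 at 74.9, 75.5 and 75.1 FPKM and Uhrf1 at 68.0 ± 1.99.

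Transcription factors of the oocyte were lower than the zona pellucida genes. Nobox had 52.2 ± 6.76 FPKM, Figla, which activates the zona pellucida genes, 19.8 ± 4.70, Sohlh1 19.6 ± 2.41 and Lhx8 11.3 ± 0.189. Transcripts of meiotic prophase, which oocytes complete up to diplotene before or soon after birth, were measured beside those of the piRNA pathway. Of 22 genes for meiosis and piRNA, 15 were above 1 and 5 above 10 FPKM, and their median was 3.37 FPKM against 2.10 over all protein-coding genes. Ddx4, the germ cell helicase, had 16.5 ± 1.38 FPKM, whereas the synaptonemal complex gene Sycp1 had 0.792, 1.61 and 1.55 and the recombinase Dmc1 0.838, 0.793 and 0.672.

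The 250 bases before the annotated start of Zp3 are printed because Figla is known to act on zona pellucida promoters through an E-box, of the general form CANNTG. The E-box searched here was CACGTG, which reads the same on both strands, and it is in capitals.
Zp3 (chr5:135979855-135980104, plus strand): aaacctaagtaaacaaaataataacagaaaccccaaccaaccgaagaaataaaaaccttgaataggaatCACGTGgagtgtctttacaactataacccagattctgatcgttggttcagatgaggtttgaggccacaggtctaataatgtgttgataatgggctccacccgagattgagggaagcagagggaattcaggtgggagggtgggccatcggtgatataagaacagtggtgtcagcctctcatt
The CACGTG box begins at position -181 from the start. Other letters of the form CANNTG in these bases, such as CAGATG and CAGGTG, were not searched and are not marked. The letters CACGTG were in 6.76% of the 19874 windows, counted over the 250 bases before the start. Among the 23 windows of oocyte markers they were in 4, those of Zp3, Tle6, Sohlh1 and Ddx4. They were also in 24.5% of the 49 windows of the translation factor list and in 11.1% of the 18 windows of granulosa markers. Of the 28 oocyte markers 19 had a window.

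Granulosa markers were all above 1 FPKM, and 18 of 20 were above 10. Beside Inha, the beta subunit genes Inhbb and Inhba had 200, 181 and 204 and 122, 53.9 and 85.5 FPKM. Inhba was among the most variable genes of its level, and its lowest library was replicate 2. Amh, the hormone of small growing follicles, had 186, 175 and 168 FPKM, and its receptor gene Amhr2 106, 120 and 122. Foxl2, the transcription factor that keeps granulosa cells from a Sertoli cell fate, had 150, 133 and 143 FPKM. The nuclear receptor Nr5a2 had 119 ± 9.18 FPKM, the activin antagonist Fst 116 ± 10.1 and the KIT ligand gene Kitl 55.5 ± 4.75. Kctd14 was nearly equal in the libraries with 230, 231 and 234 FPKM.

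Genes of estrogen production differed in level. Fshr, the FSH receptor, had 11.6, 15.0 and 16.0 FPKM and Cyp19a1, the aromatase that makes estrogen, 6.61, 3.77 and 4.95. Hsd17b1, which reduces estrone to estradiol, reached 184, 161 and 184 FPKM. Of the 15 genes of the ovulation and corpus luteum list 7 were above 1 FPKM, beside 55.8% of all protein-coding genes. Adamts1 and Ptx3, which the ovulatory surge induces, had 5.45 ± 0.464 and 2.23 ± 0.310 FPKM, and Pgr, Areg and Ptgs2 were lower. Pgr had 0.821, 0.562 and 0.580 FPKM, Areg 0, 0.0681 and 0.202, and Ptgs2 0.0535, 0 and 0. Akr1c18, which degrades progesterone and marks regressing corpora lutea, had 10.5, 4.73 and 8.95 FPKM. Of 5 Sertoli cell genes 2 were above 1 FPKM, Dhh, a hedgehog ligand that granulosa cells also make, at 22.6 ± 1.12 and Sox8 at 2.50 ± 0.280. Sox9 was at 0.898 ± 0.299 FPKM, Dmrt1 at 0.0275 ± 0.0177 and Rhox5 at 0 in all libraries.

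**Figure D3:**
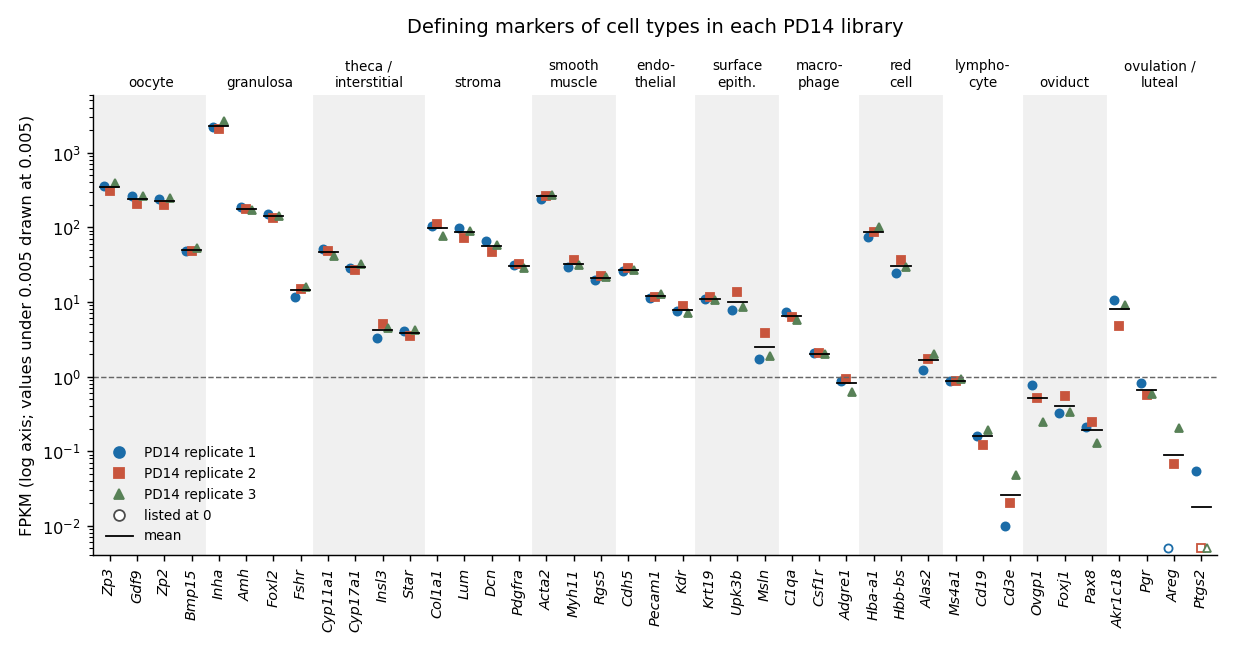
FPKM (log axis) of the defining markers of 12 cell types in each of the 3 PD14 libraries, with black bars for the means, open symbols for values of 0 and a dashed line at 1 FPKM. Oocyte, granulosa, theca, stromal, smooth muscle and endothelial markers lie above 1, whereas the lymphocyte and oviduct markers lie below 1 in all 3 libraries.

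Enzymes of steroid synthesis differed widely in level. Hsd3b1 exceeded the other enzymes of the pathway, and 14 of the 16 genes of steroid synthesis were above 1 FPKM. Cyp11a1, which opens the pathway by cleaving the cholesterol side chain, had 50.8, 48.4 and 41.2 FPKM. Cyp17a1, the theca enzyme for androgens, had 28.6, 26.4 and 31.8 FPKM. Star, which carries cholesterol into mitochondria, had only 4.04, 3.44 and 4.18 FPKM, and the theca hormone Insl3 3.27, 5.05 and 4.41. Insl3 overlaps exons of other genes over 64.8% of its length, so its level is uncertain. Akr1c14, a 3-alpha-hydroxysteroid dehydrogenase, reached 184 ± 26.5 FPKM. The receptor Lhcgr had 13.3, 16.0 and 13.9 FPKM, and the hedgehog targets Ptch1 and Gli1, which theca cells express in answer to granulosa ligands, had 42.7 ± 6.34 and 14.2 ± 0.446. All 24 genes of cholesterol synthesis and uptake were above 1 FPKM, led by the cholesterol esterifying enzyme Soat1 with 91.3, 65.8 and 64.1.

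All 14 stromal markers were above 10 FPKM, with Col6a1 at 198 ± 8.46, Col3a1 at 186 ± 11.6, Col1a1 at 105, 111 and 77.3 and the mesenchymal receptor Pdgfra at 30.4 ± 2.15. Of 11 smooth muscle and pericyte markers 10 were above 1 FPKM and 5 above 10, with a median of 7.65 FPKM. Acta2, the smooth muscle actin, had 238, 265 and 274 FPKM, against 32.4 ± 3.67 for the smooth muscle myosin Myh11 and 21.03 ± 1.29 for the pericyte gene Rgs5. Lower values were listed for Des (1.87 FPKM) and Tagln (0.874). Tagln overlaps exons of other genes over 67.9% of its length, so its level is uncertain. All 12 endothelial markers were above 1. Cdh5, the cadherin of vessels, had 26.1, 28.5 and 26.7 FPKM and Pecam1 11.4, 11.6 and 12.7. Of the 12 surface epithelium markers 9 were above 1, and the list took 0.0304%, 0.0357% and 0.0295% of protein-coding FPKM. Its defining markers Krt19, Upk3b and Msln had 10.96 ± 0.472, 9.90 ± 3.09 and 2.48 ± 1.16 FPKM.

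Collagens and basal lamina, lists that share genes, had the same order of libraries. Of 44 collagen genes, 34 were above 1 FPKM, beside 55.8% of all protein-coding genes, and the list took 0.453%, 0.503% and 0.390% of protein-coding FPKM. The basal lamina list took 0.290%, 0.328% and 0.261%. Both were highest in replicate 2 and lowest in replicate 3. Col4a1, a collagen of basement membranes, had 151, 166 and 133 FPKM and the laminin gene Lama1 38.7, 49.2 and 40.4. Among proteases and their inhibitors, the collagen chaperone Serpinh1 led with 330 ± 20.7 FPKM, and Mmp2 had 83.7 ± 2.63.

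Markers of blood cells and neighbouring tissues were present to differing degrees, beside 55.8% of all protein-coding genes above 1 FPKM. Of 14 macrophage markers 10 were above 1 and none above 10. The macrophage genes C1qa and Csf1r had 6.43 ± 0.779 and 2.03 ± 0.0175 FPKM, and Adgre1 had 0.811 ± 0.167. None of the 10 lymphocyte markers was above 1, and neither was any of the 6 skeletal muscle markers. Of 9 oviduct epithelium markers 4 were above 1 FPKM, led by Tppp3 (8.61 ± 0.426) and Epcam (5.61 ± 0.149), whereas its defining markers Ovgp1, Foxj1 and Pax8 had 0.513, 0.405 and 0.195. Of the 8 fat markers only Plin1 (6.97 ± 0.700 FPKM) was above 1 while Adipoq was at 0.0298. Red cell markers, of which 6 of 9 were above 1, took 0.0674% ± 0.00769 of protein-coding FPKM, a share above that of the endothelial list. Hba-a1 made 46.0% of this sum. That order turned without the highest gene of each list, with 0.0364% ± 0.00366 for red cell and 0.0410% ± 0.00266 for endothelial markers. The globin Hba-a1 had 74.9, 85.9 and 101 FPKM, although it shares 63.3% of its windows with other genes. Of 22 immediate early and heat shock genes, which rise in tissue under stress, 18 were above 1 and 7 above 10 FPKM, with a median of 4.49 FPKM against 2.10 over all protein-coding genes. Hsph1 was highest with 29.6 ± 3.87 FPKM, whereas Egr1 had 8.60 ± 0.605, Hspa1a 2.34 ± 0.499 and Fos 1.30 ± 0.141.

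Ligands, receptors and mediators of the TGF-beta family were then taken in the order of the pathway. Of 27 ligand genes 16 were above 1 and 9 above 10 FPKM, beside 55.8% and 26.1% of all protein-coding genes, and the list took 1.11%, 1.04% and 1.20% of protein-coding FPKM, for the most part through Inha. Below Inha stood Gdf9, Inhbb, Amh, Inhba and Bmp15, followed by Tgfb3 (33.6 ± 0.345 FPKM), Bmp3 (16.7 ± 0.311) and Bmp6 (14.2 ± 1.83). Of 13 receptor genes 12 were above 1 and 7 above 10 FPKM. Amhr2 led with 116 ± 8.98 FPKM, and the receptor for BMP15 and GDF9, Bmpr2, had 19.1 ± 0.193. The type I receptors Bmpr1a, Tgfbr1 and Bmpr1b had 28.1 ± 1.55, 25.3 ± 1.76 and 19.2 ± 0.630 FPKM, whereas Acvr1c had 0.236 ± 0.0215. Smad3, which carries the activin and GDF9 signal, had 49.3 ± 3.44 FPKM and Smad4, the shared partner, 36.7 ± 0.274. Of 18 antagonists and SMADs 15 were above 1.

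Of 25 hormone receptor genes 18 were above 1 FPKM, 11 above 10 and 2 above 100, beside 55.8% above 1 and 26.1% above 10 of all protein-coding genes. The 2 were Amhr2 and Pgrmc1, a membrane-associated progesterone receptor component with 110, 104 and 110 FPKM. Esr2, the estrogen receptor of granulosa cells, had 46.7, 55.2 and 53.9 FPKM, whereas Esr1 had 4.70, 4.11 and 3.82. Fshr and Lhcgr lay within the spread of their libraries, since their values ran from 11.6 to 16.0 and from 13.3 to 16.0 FPKM. The transcription factors of the somatic ovary were led by Foxl2 and Nr5a2, and included Gata4 (82.6 ± 1.13 FPKM) and Nr5a1 (62.0 ± 1.54).

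Genes of the mTOR and CNP pathways were taken next. Mtor, the kinase, had 10.2, 10.6 and 9.93 FPKM, and all 16 genes of the mTOR complexes and their regulators were above 1, with a median of 9.52 FPKM. Rptor and Rictor, which define both complexes, had 6.01 ± 0.308 and 6.89 ± 0.364 FPKM, and the inhibitor Akt1s1 was highest with 34.8 ± 1.59. Akt1 had 66.0 ± 1.63 FPKM, and Foxo3, which holds primordial follicles at rest, 16.0 ± 0.883. Nppc, the gene of CNP, had 29.0, 21.6 and 30.6 FPKM, and its receptor gene Npr2 22.8, 24.2 and 19.04. These ranges overlapped. Npr1, the receptor of the other natriuretic peptides, had 16.6, 18.1 and 17.1 FPKM, whereas its ligand genes were at 0.0346 FPKM (Nppa) and at 0 in all libraries (Nppb). The clearance receptor gene Npr3 had 2.70 ± 0.411 FPKM. Prkar2b, a regulatory subunit of protein kinase A, had 279, 189 and 243 FPKM, and Wee2, the oocyte kinase that keeps CDK1 inactive, 11.4 ± 1.60. Pde3a, which breaks down cyclic AMP in oocytes, had 3.78 ± 0.578 FPKM.

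**Figure D4:**
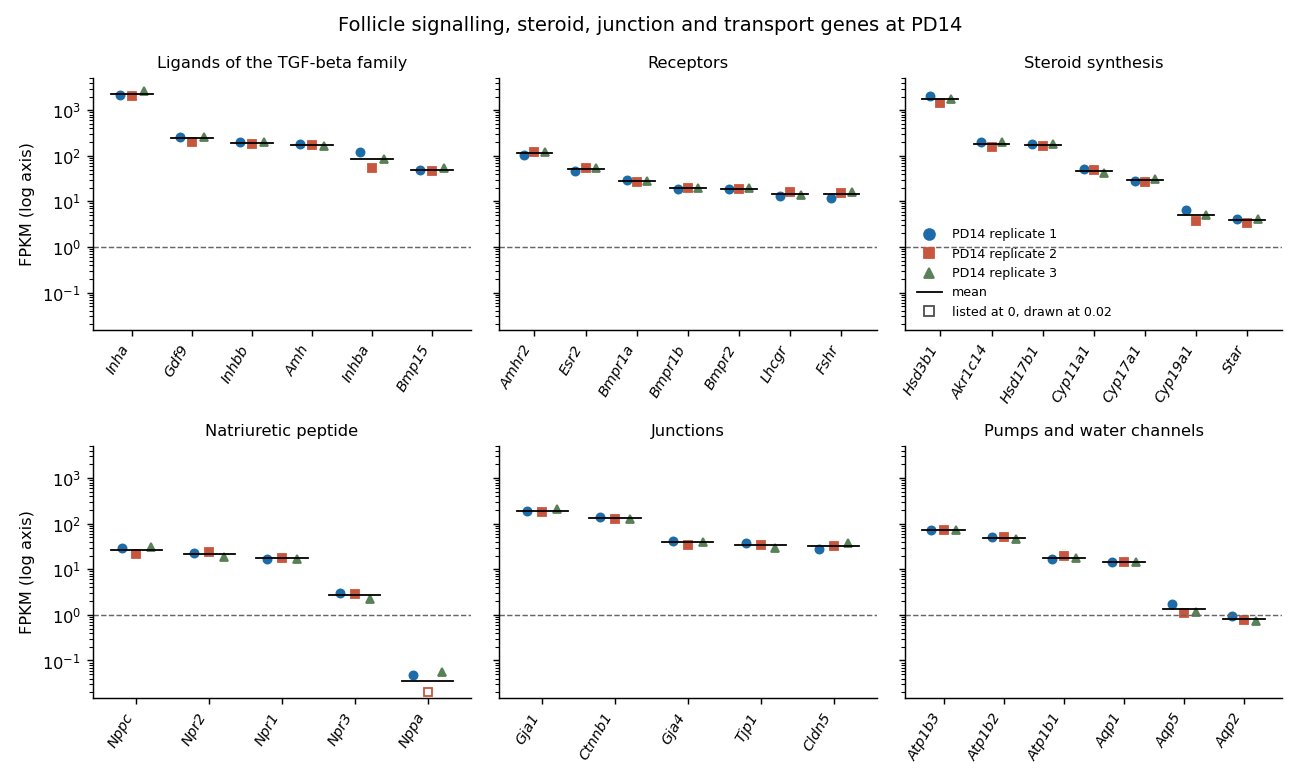
FPKM (log axis) of genes for signalling, steroid synthesis, junctions and fluid transport in each of the 3 PD14 libraries, with black bars for the means and a dashed line at 1 FPKM. Inha and Hsd3b1 exceed 1000 FPKM, mean levels of the receptors shown lie between 14.2 and 116 FPKM, and Aqp1 alone of the water channels shown exceeds 10 FPKM.

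Junctions between follicle cells differed widely in their transcripts. Of 23 gap junction genes, 6 were above 1 FPKM and 2 above 10, and of 35 tight junction genes 16 and 7, beside 55.8% and 26.1% of all protein-coding genes. Gja1, which couples granulosa cells to each other, had 192, 177 and 208 FPKM and Gja4, which couples them to the oocyte, 42.4, 34.7 and 40.03. The catenin Ctnnb1 had 130 ± 5.98 FPKM, and N-cadherin (Cdh2) 13.5 ± 0.542 against 3.25 ± 0.524 for E-cadherin (Cdh1). Among tight junction genes Tjp1, the scaffold ZO-1, had 37.0, 33.9 and 29.5 FPKM and Cldn5 28.6, 33.3 and 37.7, the latter also a marker of endothelial cells. Other claudins were lower, with Cldn1 at 9.22 ± 1.47, Cldn12 at 9.16 ± 0.898, Cldn4 at 6.89 ± 0.626 and Cldn11 at 4.51 ± 0.374 FPKM, and Ocln was at 1.54 ± 0.137. The study describes CLDN4 as the most abundant mRNA of its tight junction genes, from ovaries over the days of antrum formation. By FPKM at PD14 alone, Tjp1, Cldn5, Cldn1 and Cldn12 stood above Cldn4. The days and the gene sets are unlike, so these orders are not directly comparable.

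Of 17 sodium and proton pump genes 10 were above 1 FPKM and 6 above 10, beside the 55.8% and 26.1% of all protein-coding genes. The beta subunits of the sodium-potassium pump included Atp1b3 (73.5 ± 0.392 FPKM), Atp1b2 (49.4 ± 2.87) and Atp1b1 (18.2 ± 1.72). The proton pump genes Atp4a and Atp4b had 1.12 ± 0.0991 and 0.167 ± 0.0918 FPKM. Of 12 water channel genes 3 were above 1 and 1 above 10. Aqp1 had 14.4, 14.7 and 14.5 FPKM, Aqp12 1.46 ± 0.179, Aqp5 1.33 ± 0.372 and Aqp2 0.803 ± 0.104. The study describes AQP2 as the most abundant mRNA of its aquaporins, from ovaries over the days of antrum formation. By FPKM at PD14 alone, Aqp1, Aqp12 and Aqp5 stood above Aqp2. The days covered are unlike, so these orders are not directly comparable. Of 22 ion cotransporter and channel genes 13 were above 1, a share near that of all protein-coding genes, with the potassium-chloride cotransporter Slc12a7 at 21.2 ± 0.832 and the chloride channel Cftr at 0.758 ± 0.0785 FPKM.

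All 30 proliferation genes were above 1 FPKM and 24 above 10, beside 55.8% and 26.1% of all protein-coding genes. Cdk4 had 107, 105 and 120 FPKM, Pcna 71.0 ± 2.74, the helicase subunit Mcm6 41.4 ± 1.71, Top2a 33.1 ± 1.49 and Mki67 23.8 ± 1.32. Of the D-type cyclins, Ccnd2, the one that FSH induces in granulosa cells, had 35.6, 38.6 and 36.1 FPKM, whereas Ccnd1 had 3.55 ± 0.624. Of the inhibitors Cdkn1b was highest with 34.6 ± 0.409 FPKM.

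The spread over the 3 libraries is the error given with the levels above. It does not cover an uncertainty shared by all libraries, such as that between a gene and its copies. For the 5747 genes with a mean above 10 FPKM the median coefficient of variation (CV, SD over mean) was 5.76%, and 10% of them were above 11.9%. The CV expected from counting alone at these depths had a median of 2.22% over these genes. It is the expected spread of each gene and not a CV taken over 3 libraries. Between the highest and the lowest library, 79 of these genes differed by over 1.5-fold, and 95 genes (1.65%) had a CV above 20%. The CV did not fall further with level. It was 5.60% for genes of 10 to 30 FPKM and 9.13% for the 19 genes above 1000 FPKM, whose counting error would be 0.455%.

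**Figure D5:**
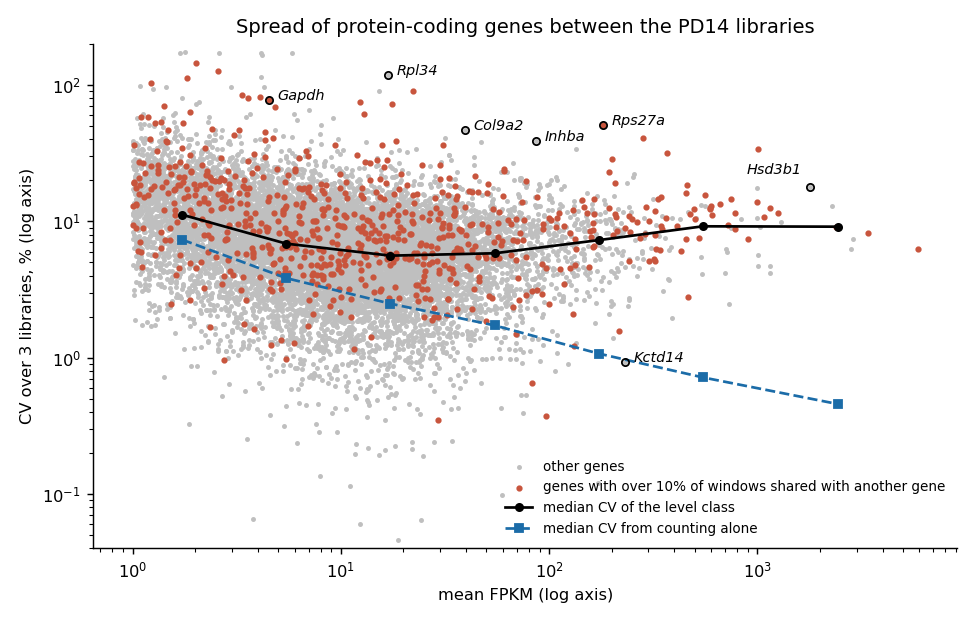
CV over the 3 PD14 libraries (%, log axis) against mean FPKM (log axis) for expressed protein-coding genes, with genes that share over 10% of their windows with another gene in red, the median of each level class in black and the median from counting alone in blue. The observed median runs from 11.2% in genes of 1 to 3 FPKM to 5.60% in genes of 10 to 30 FPKM and stays above the counting line in every class.

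The 10 genes above 10 FPKM with the largest CV were Rpl34 (118%), Rpl35a (90.6%), Gm7361 (90.1%), Dynlt1f (75.6%), Dynlt1b (72.3%), Ndufa12 (61.0%), Rps27a (50.5%), Col9a2 (46.9%), Gm10076 (41.0%) and Zpld1 (40.7%). Dynlt1f and Dynlt1b shared 77.97% and 81.99% of their windows with other genes. Of the 10, 6 shared over 10% of their windows with another gene, and Rpl34 and Rpl35a shared 3.997% and 3.39%. The median CV was 5.66% for the 4580 genes above 10 FPKM with no shared window and 9.94% for the 58 genes with over 50% of windows shared. Col9a2, a chain of collagen IX, and Zpld1, a zona pellucida domain protein, share none. Col9a2 had 28.2, 60.6 and 29.2 FPKM and Zpld1 29.6, 19.8 and 45.2. Replicate 2 was highest for Col9a2 and lowest for Zpld1.

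The smallest CV were found for Agap3, Usp25, Twf1, Csrp1, Pdlim7, Eif5a, Max, 2310033P09Rik, Igsf8 and Slc25a24, between 0.0462% and 0.209%. Agap3 had 18.8 FPKM in each library, and Eif5a, a translation factor, 171.6, 171.8 and 172.0. These values lie below the counting error of the same genes, 1.04% to 4.74%, and were picked as the lowest of 5747, so they do not mark genes as steadier than others.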

How the data were processed

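RNA from ovaries was sequenced for the authors by NOVOGENE. Libraries were prepared with the NEBNext Ultra kit and run on an Illumina HiSeq platform. The submitters' processing notes name HISAT2 2.0.5 and the build mm10, and the counter and annotation are not given in the sources used here. The authors deposited FPKM in a table per library, and no further scaling was applied to them. The 6 tables of PD15 and PD16 were not used.

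Protein-coding genes, by the biotype of the tables, were ranked by mean FPKM of the 3 PD14 libraries, and 70 gene lists (18 for cell types, 52 for functions) were summed as shares of protein-coding FPKM. A gene of a list can be in several lists, and 1 of the listed symbols (Cct6a) did not match. The members and lists were chosen with earlier results of these data known. Genes named are the 30 most abundant, members of the lists, and the 10 with the largest and smallest CV above 10 FPKM. Others were named after their values were seen. No test was made, since there is 1 group. Some genes of the lists are not reported here by name.

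Depth was derived from FPKM multiplied by the exon length of GENCODE M21. Of genes with up to 10 fragments, 95.1% were within 0.02 of a whole number of fragments, in each library. The 3 libraries differed by more than counting error and none was a copy of another. A total of 169 protein-coding genes had no M21 length. For each gene, 100-base windows identical to those in transcripts of other genes were counted. Recovery of depth, ranks and CV was tested on simulated data. Tools were Python 3.11.15, pandas 2.3.3, NumPy 2.4.6 and Matplotlib 3.10.9. Alternatives were other totals, thresholds and scalings, and each library left out in turn.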

Additional observations from a re-analysis of the deposited data

How the results depend on the processing

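No paired analysis was possible because a single day was described and no test was made. Of the 61 alternatives for 8 results, 43 stayed within the spread over the libraries or within 1.5 times a count. Without the mitochondrial genome in the total, the 10 most abundant genes took 6.27% and the 100 most abundant 21.2%, since those genes leave the ranking, and ribosomal proteins took 12.3% and granulosa markers 1.62%. With all genes of the table in the total, which adds pseudogenes and other biotypes, the shares were 7.90% for the 10 and 22.1% for the 100 most abundant genes, 10.3% for ribosomal proteins, 5.02% for proteins of the mitochondrial genome, 0.832% for oocyte markers and 1.35% for granulosa markers. With pseudogene copies added, chosen after seeing the data, ribosomal proteins took 14.1%. Without the highest gene of the list, also chosen after seeing the data, granulosa markers took 0.716% and oocyte markers 0.805%, and the order of these lists turned. The median CV was 6.70% after scaling to TPM, 6.77% for genes above 1 FPKM and 6.79% for those above 50 FPKM. Leaving out 1 library in turn gave a median CV of 4.12% to 5.47%, which is over 2 libraries. It gave 12301 to 12310 expressed genes, and shares of 8.78% to 9.17% for the 10 most abundant genes, 24.5% to 25.5% for the 100 most abundant, 11.3% to 11.9% for ribosomal proteins, 5.64% to 5.73% for the mitochondrial genome, 0.918% to 0.991% for oocyte markers and 1.48% to 1.57% for granulosa markers. Expressed genes numbered 13384 above 0.5 FPKM, 8661 above 5 FPKM and 14058 after scaling to TPM. At 3 libraries the SD is imprecise, and levels below 1 FPKM rest on few fragments.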
